A study of Rattus norvegicus with 12 samples.

Results

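Abca1 encodes the ATP-binding cassette transporter that loads cellular cholesterol and phospholipid onto apolipoprotein A-I, the first step in building high-density lipoprotein. Cells that take up much lipid, such as macrophages clearing myelin debris, rely on it to export cholesterol, and its transcription is raised by the liver X receptors when sterols accumulate. N6-methyladenosine (m6A) is a methyl mark on adenosines inside messenger RNA, set by a METTL3 and METTL14 complex, removed by FTO and ALKBH5, and read by YTH domain proteins that act on splicing, translation and decay. MeRIP-seq locates the mark by pulling down RNA fragments with an m6A antibody (IP) and sequencing them beside the fragments before pull-down (input).

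The deposited list of m6A peaks that differed between injured and uninjured rat sciatic nerve held 29 peaks of Abca1 among 4014 peaks in all. The members were chosen by position, as all minus-strand peaks on chromosome 5 (rn5) from 74023921 to 74112802, and the gene was selected on its high number of peaks in this same comparison. That number, and the scores and lengths from the same contrast, are therefore given as a description without a test. The paper's table of peaks with gene names, of which 526 rows were used here, names 6 of the 29 as Abca1, and the other 23 were assigned by lying on the same strand within the region. The 6 named peaks lie between 74030681 and 74090092, so the outermost peaks on either side rest on position alone.

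The animals were female Wistar rats of 4 weeks and 100 to 120 g. The Control group was uninjured, and the SNI group had a sciatic nerve injury with nerve taken at the injury centre 7 days later. Each group gave 3 samples, and from each of these an IP and an input were sequenced (12 libraries). The authors' list comes from a comparison of all replicates together and gives chromosome, start, end, strand and a score for each peak, the score being −log10 of the p-value of that comparison. Neither values of single libraries nor fold changes, directions or gene levels are columns of this list. The read depth and replicate error behind a peak therefore cannot be computed from it, the direction that the paper's table assigns to the peaks it names is not used here, and the tissue label could not be checked against cell type markers. The paper's quality table lists the same raw read totals for the Control inputs as for the SNI RNA-seq libraries, and for the SNI inputs as for the Control RNA-seq libraries. The group labels of the inputs thus disagree within that table. Whether an exchange of inputs entered the peak comparison was not tested, and every score below rests on that comparison. Sciatic nerve is a mixture of cells, and a change in which cells were present, in RNA per cell or in methylation per transcript cannot be told apart in such a list.

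The 29 peaks lay far from any other peak of the list. Abca1 held 20.1% of the 144 minus-strand peaks of chromosome 5 and 0.722% of the whole list. No plus-strand peak lay in the region. On the minus strand the nearest peak outside was 5293 kb below, from 68730381 to 68730940 with a score of 8.50, and the nearest above was 5261 kb away, from 79374063 to 79374172 with a score of 6.07. The limits of the region are the outer edges of the outermost Abca1 peaks, which scored 10.3 and 11.4. They were thus drawn from the peaks and do not bear on whether the unnamed peaks belong to Abca1. On the plus strand the nearest peaks lay 838.9 kb below and 4750 kb above. In RefSeq's GRCr8 annotation, used here only for neighbours and lengths, Abca1 lies between Nipsnap3b and Slc44a1 and is 122888 bases long, longer than the 88881 bases the peaks span.

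The peaks tiled the gene as short separate blocks. Together they covered 3555 bases, 4.0% of the region, with 1 peak every 3.06 kb on average. Positions are those of the genome, so the region and its gaps include introns. They do not give distances along the mRNA. The 28 gaps between neighbours ran from 261 to 19288 bases with a median of 1482 bases. Of these, 17 were under 2000 bases and 5 were over 5000 bases. No peak touched another, and merging peaks less than 100 bases apart left the number at 29. The 5 gaps over 5000 bases split the gene into 6 groups, which are described next from 5′ to 3′, that is from the highest to the lowest coordinate.

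At the 5′ end, 2 peaks stood apart from the rest. The first ran from 74112680 to 74112802 (122 bases) and scored 11.4, and the second, 1032 bases on, ran from 74111529 to 74111648 (119 bases) and scored 11.0. Both scores lay above the median of the Abca1 peaks, 10.2. The widest gap of the gene, 19288 bases, followed. After it came a weaker pair, with a peak from 74092181 to 74092241 (60 bases) scoring 7.82 and one from 74089915 to 74090092 (177 bases) scoring 8.89. The lower of these values was the second lowest of the gene.

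A gap of 10653 bases led to the third group, 3 peaks within 5695 bases. From 5′ to 3′ they were 93, 241 and 140 bases long and scored 9.55, 8.16 and 10.7. The middle one, from 74075780 to 74076021, was the longest Abca1 peak and had the lowest score of the group, so within these 3 peaks more length did not come with a higher score.

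The fourth group, 5086 bases further on, was the dense middle of the gene, with 18 peaks within 26249 bases, from 74042232 to 74068481. Its gaps ran from 261 to 3397 bases with a median of 1221 bases. The median score was 10.4, and the range from 7.64 to 12.8 was that of the whole gene, so this group held both the lowest and the highest score of the gene. The highest score belonged to the peak from 74062466 to 74062580 (114 bases), which ranked 22 in the list of 4014. Next were the peaks from 74057822 to 74057920 (98 bases, score 12.5, rank 54) and from 74059825 to 74059940 (115 bases, score 12.4, rank 56). All 3 lay within 5 kb of one another, and they were the only Abca1 peaks scoring over 12. The lowest score, 7.64, was that of the peak from 74066886 to 74067080 (194 bases), at the 5′ side of the same group.

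A gap of 9554 bases led to the fifth group, a pair from 74032557 to 74032678 (121 bases) and from 74030681 to 74030787 (106 bases) that scored 10.6 and 8.11. After a gap of 5541 bases, the sixth group was the pair at the 3′ end, from 74025078 to 74025140 and from 74023921 to 74023987, which scored 8.17 and 10.3. At 62 and 66 bases, these last 2 peaks were among the shorter ones of the gene.

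**Figure D1:**
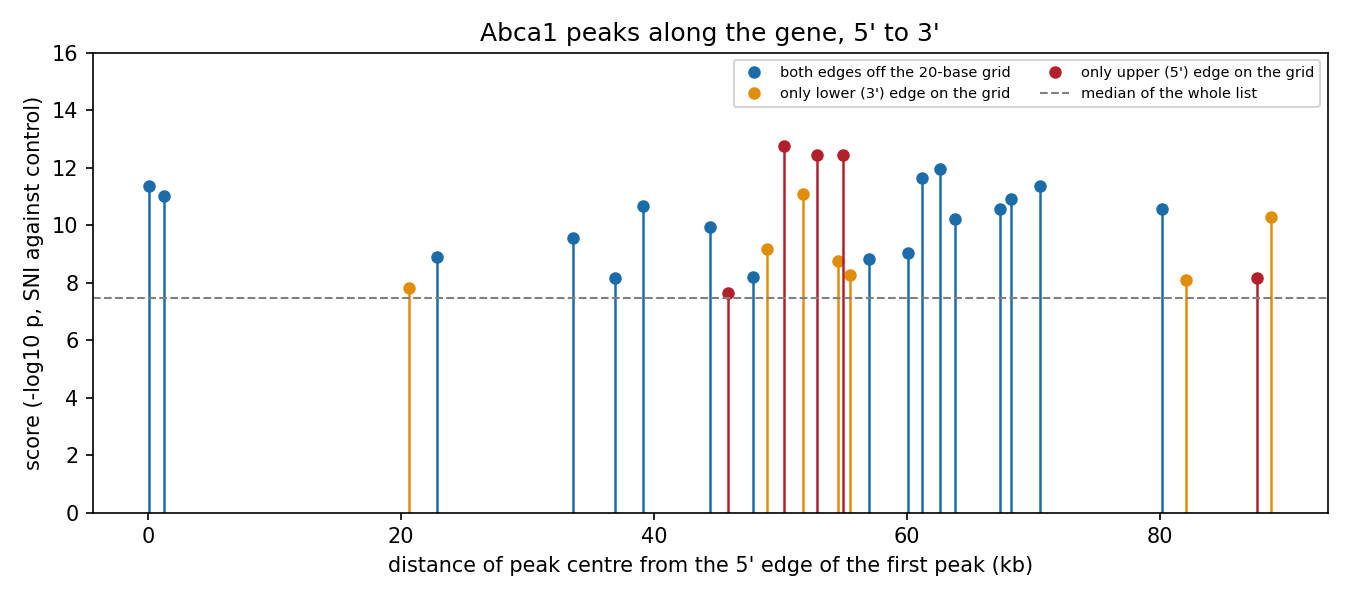
Score (−log10 p of SNI against Control) of each of the 29 Abca1 peaks against the distance of its centre from the 5′ edge of the first peak, in kb. Colours show which edges fall on a 20-base grid and the dashed line is the median of the whole list, 7.46. All points stand above the line, the 3 over 12 sit close together in the fourth group, and the widest empty stretch follows the first 2 peaks.

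Scores of the Abca1 peaks were high for the list throughout the gene. They ran from 7.64 to 12.8 with a median of 10.2 and quartiles of 8.75 and 11.1, against a median of 7.44 and quartiles of 6.54 and 8.90 for the other peaks. The lowest Abca1 score was reached or passed by 44.9% of all peaks of the list. A score of at least 8 was found for 27 of the 29 peaks (93.1%), against 37.1% of the list, and a score of at least 10 for 15 (51.7%), against 15.5%. The 2 below 8 were the peaks with scores of 7.64 and 7.82 given above. Among the 500 highest scores of the list 13 belonged to Abca1, and 3 were among the 100 highest. These shares come from the contrast that chose the gene and from 1 set of libraries, and they describe the peaks without testing them.

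Score followed position only weakly. Spearman's rho of score with order from 5′ to 3′ was 0.093 over the 29 peaks, which share the same libraries and transcript. The 2 peaks at the 5′ end, at 11.4 and 11.0, and the peak at the 3′ end, at 10.3, all exceeded the median of the gene. Neighbouring peaks differed by a median of 1.22 in score, and all pairs of Abca1 peaks by a median of 1.68. Length and score were as weakly related, with a rho of 0.013 over the same peaks and 0.088 over the list.

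The lengths of Abca1 peaks kept to a narrower range than the other peaks taken as a whole. They ran from 52 to 241 bases with a median of 114 and quartiles of 95 and 140 bases, whereas the other peaks ran from 1 to 4521 bases with a median of 153 and quartiles of 96 and 293. A narrow range was not particular to Abca1. The 14 same-strand peaks around those named Myof on chromosome 1, with gaps under 20000 bases, ran from 43 to 167 bases. Myof is named here after its lengths were seen. Of the list, 30.4% of peaks were longer than the longest Abca1 peak. A length from 90 to 250 bases was found for 23 of the 29 peaks (79.3%), against 48.4% of the list. The share under 100 bases was nearer that of the list, with 10 of 29 (34.5%) against 26.7%. The commonest length was 106 bases, shared by 2 peaks of the fourth group and 1 of the fifth.

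**Figure D2:**
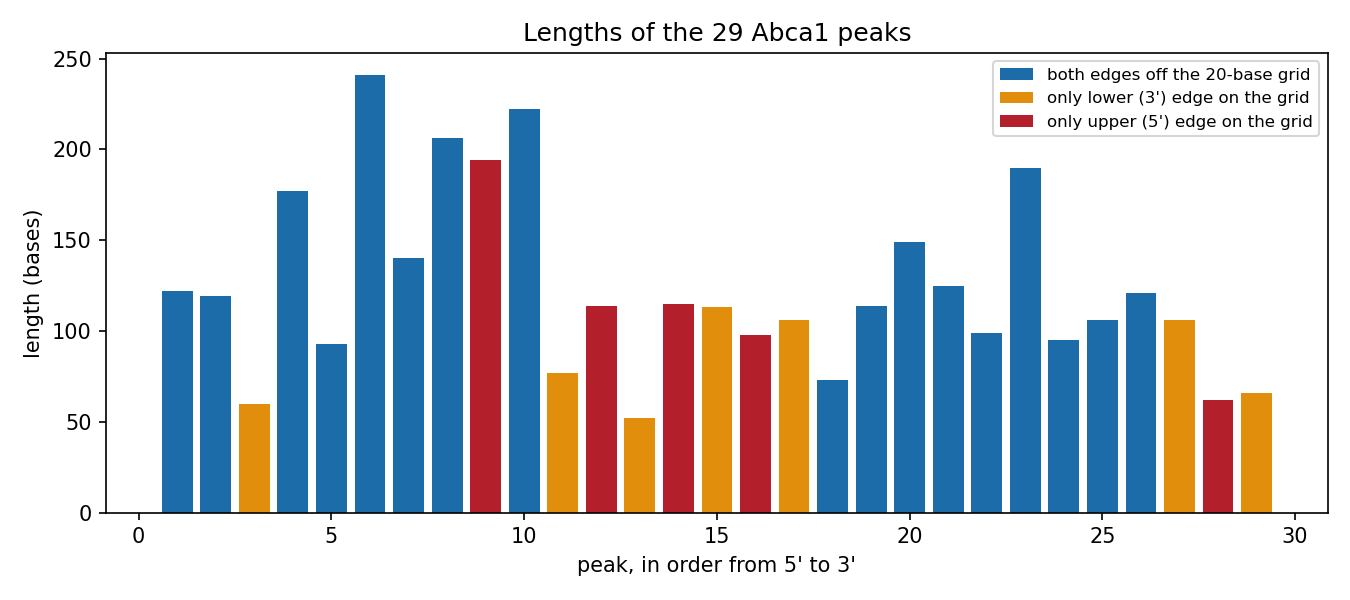
Length in bases of each Abca1 peak, in order from 5′ to 3′, with bars coloured by which edges fall on the 20-base grid. Bars run from 52 to 241 bases, and the 9 peaks from the 18th to the 26th all have both edges off the grid.

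**Figure D3:**
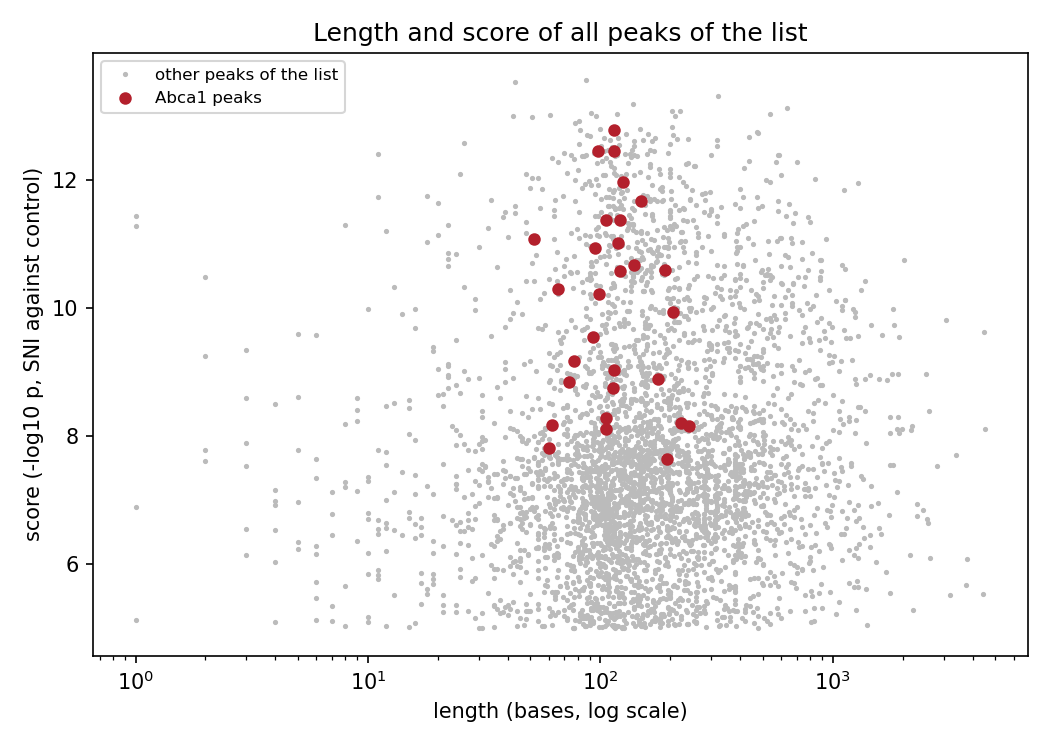
Length (bases, log scale) and score of every peak of the list, with the 29 Abca1 peaks in red. The Abca1 peaks lie from 52 to 241 bases and from 7.64 to 12.8 in score, while the other peaks of the list run from 1 to 4521 bases.

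The edges of the peaks carried a further regularity. In the list, 1218 starts (30.3%) were 1 base past a multiple of 20 and 1220 ends (30.4%) were at a multiple of 20, while no other remainder held more than 161 starts or 176 ends. Such edges lie on a 20-base grid, as sliding windows of the comparison would give. An edge off the grid does not follow such windows. Whether these edges are exon limits was not tested, since exon coordinates of rn5 were not used here.

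Of the 29 Abca1 peaks, 17 (58.6%) had both edges off the grid, against 51.6% of the list, which is near the background. Every one of the 29 had at least 1 edge off the grid, against 87.7% of the list, and 0 had both edges on it, against 12.3%. In all, 46 of 58 Abca1 edges were off the grid. No Abca1 peak thus had the shape of whole windows with no other limit.

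The 17 peaks with both edges off the grid ran from 73 to 241 bases with a median of 122 bases and held 2392 of the 3555 bases covered. Their median score was 10.6, with a range from 8.16 to 11.96. The other 12 peaks had a median length of 102 bases (52 to 194) and a median score of 8.96 (7.64 to 12.8). The highest and the lowest Abca1 scores thus both belonged to peaks with an edge on the grid, and the scores of the 17 spanned a narrower range inside them.

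Peaks with both edges off the grid, and peaks with 1 edge on it, came in stretches along the gene. Whether these are longer than a random order would give was not tested. From the 18th to the 26th peak, 9 in a row had both edges off the grid, from 74055828 down to 74032557, with 1072 bases and scores from 8.85 to 11.96. Just 5′ of them, 7 peaks in a row, from 74063878 down to 74057221, each had 1 edge on the grid, and the grid edge was in turn the lower (3′) and the upper (5′) one. In this stretch the 3 peaks with the upper edge on the grid were the 3 that scored over 12. The 4 with the lower edge on the grid scored 9.17, 11.1, 8.75 and 8.28. The pattern did not extend to the rest of the gene, where the other 2 peaks with the upper edge on the grid scored 7.64 and 8.17. Over the whole gene these kinds of peak overlapped, at 7.64 to 12.8 for the upper edge and 7.82 to 11.1 for the lower. Their scores over the list were not compared.

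Coding exons often keep the reading frame, with lengths that are multiples of 3, and the remainder of each length on division by 3 was therefore counted. Over the list, 45.3% of the 2071 peaks with both edges off the grid had a length, end minus start, divisible by 3, while remainders of 1 and 2 made up 27.8% and 26.9%. Among the 1943 peaks with an edge on the grid the shares were 34.2%, 33.6% and 32.3%. The excess at remainder 0 appeared with length taken as end minus start, the length that starts counted from 0 would give. Edges on the grid would instead enclose whole windows if starts were counted from 1. End minus start may thus be 1 base short for such peaks. The 17 Abca1 peaks did not show the excess at remainder 0, with 5, 5 and 7 at remainders 0, 1 and 2. That number is too small to compare with the list.

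To set Abca1 beside other transcripts with many peaks, peaks of the same strand with gaps under 10000 bases were joined into runs. This gave 2539 runs, of which 1900 were single peaks and 10 had at least 15 peaks. The run that holds Abca1 had 25 peaks over 55.3 kb and was the fourth by number of peaks, behind 3 runs on chromosome 3 with 42, 36 and 26. The remaining 4 Abca1 peaks, the 2 pairs at the 5′ end, were left outside it by the gaps of 10653 and 19288 bases. With gaps under 20000 bases all 29 formed 1 run, the third by number of peaks. It came well behind 2 runs on chromosome 3, with 78 and 56 peaks, that took in the chromosome 3 runs above. A run need not be 1 transcript, and 1 transcript may be split into several runs.

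By score the Abca1 run stood above the other 9 runs of at least 15 peaks. Its median was 10.2, against medians from 6.78 to 8.77, and its lowest score, 7.64, was above the lowest of each, which ran from 5.07 to 6.96. In the run on chromosome 6 from 109076009 to 109106680, the next by median, 21 peaks had a median of 8.77 and scores up to 13.0. The 4 runs on chromosome 3 had no peak above 8.10, so that the longest runs of the list and the Abca1 run hardly shared any range of scores. These 4 are not separate comparisons, since they fall within the runs of 78 and 56 peaks of the wider gap. Among all 24 runs of at least 10 peaks Abca1 came second, after a run of 14 peaks on chromosome 13 with a median of 10.7 that the paper's table names Cenpf. That gene, which encodes a centromere protein of dividing cells, is named here after its value was seen.

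Cenpe, a kinesin motor of the centromere, was the other gene named in a run of at least 15 peaks. Its run of 20 peaks on the plus strand of chromosome 2 covered 38.3 kb, with a median score of 7.62 and scores from 5.39 to 12.8. The highest score was 12.8 in both runs, and the lowest was 2.25 lower in the Cenpe run. The median length was 159 bases in the Cenpe run and 113 bases in the Abca1 run, and both edges were off the grid for 15 of 20 and 14 of 25 peaks. Over the other 9 runs of at least 15 peaks, Cenpe included, median lengths ran from 94 to 279 bases, on both sides of that of Abca1. Both edges were off the grid for 53.8% to 95.2% of the peaks in these runs, against 56% in the Abca1 run. Spacing along the genome, introns included, was alike, with 5.22 peaks per 10 kb for Cenpe and 4.52 for Abca1.

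**Figure D4:**
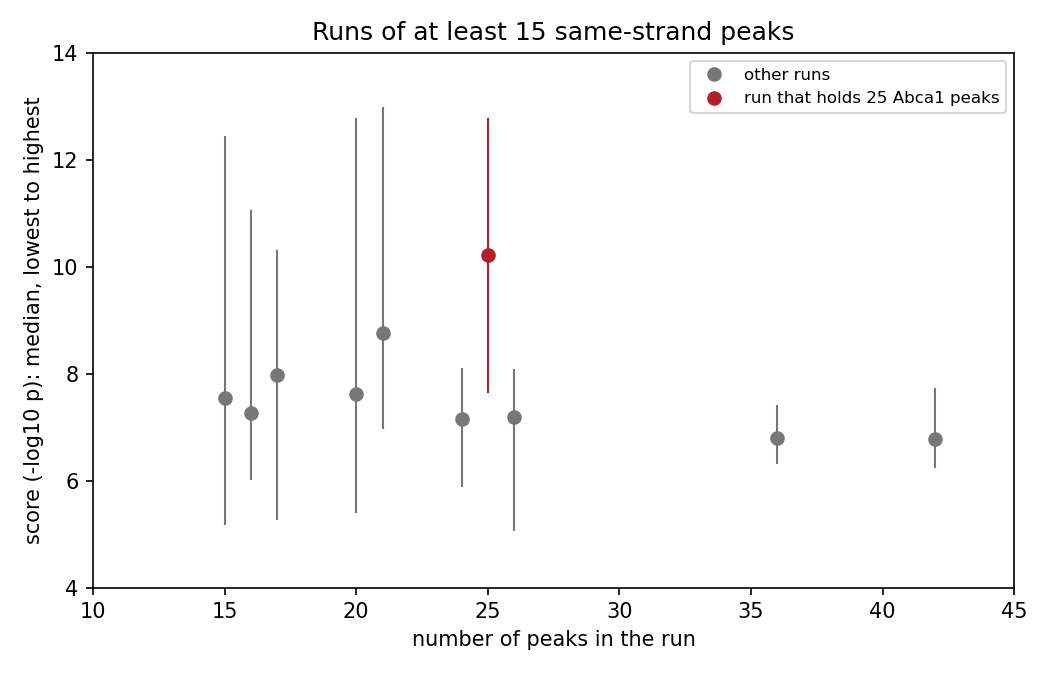
Number of peaks and score (−log10 p) of the 10 runs of at least 15 same-strand peaks joined by gaps under 10000 bases, with points at the median and lines from the lowest to the highest score. The run with 25 Abca1 peaks has a median of 10.2, above the 6.78 to 8.77 of the other runs.

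Among genes with many named peaks, Abca1 had the highest median score. Its 6 named peaks scored from 7.64 to 12.4 with a median of 9.78. The 6 of Cenpe had a median of 7.48, with 12.5 at most, and the 7 of Nav2, a cytoskeletal regulator of neurite growth, a median of 6.37, with 7.63 at most. The 5 of Kif11, a mitotic kinesin, had a median of 5.75, and the 5 of Tenm3, a teneurin adhesion receptor, also had 5.75. Every named Nav2 and Tenm3 peak scored below the lowest Abca1 peak, a score that 44.9% of the list reached or passed. The ranges of Cenpe and Kif11 overlapped that of Abca1. These are the named rows used here, 13.1% of the list, and not all peaks of each gene. With unnamed peaks included, in runs joined by gaps under 20000 bases, the Nav2 run reached 10.8 and the Kif11 run had a median of 7.47.

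Other genes of lipid transport, phagocytes and myelin were looked up in those rows, which name 361 of 23154 protein-coding symbols of RefSeq (1.56%). Of the 82 genes looked up, 5 were named, 4 besides Abca1, and nothing particular to these lists can be read from so few. Of 12 transporters of subfamily A, Abca1 and Abca7 had a named peak, and Abca7, a close relative linked to phagocytosis, had 1, on chromosome 7 from 12925173 to 12925375 (202 bases, score 6.93). Of 22 genes of cholesterol efflux and its control, 1 was named, Abca1 itself. Of 26 genes of cholesterol uptake and synthesis, 2 were named, the scavenger receptors Msr1 and Olr1, which bind modified lipoprotein, with 1 peak each and scores of 7.60 and 7.58. All 3 of these scores lay below the lowest Abca1 score, which 44.9% of the list reached or passed. The Olr1 peak, from 211885241 to 211885740 on chromosome 4, was 499 bases long with both edges on the grid, unlike any Abca1 peak. Among 13 phagocyte genes 1 was named, Itgam, an integrin of myeloid cells, with 1 peak scoring 7.15, and among 10 myelin genes 0 were named. A gene without a named row may still have peaks in the list, so these counts are lower bounds.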

How the data were processed

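MeRIP-seq was made from sciatic nerve of 3 Control and 3 SNI rats (12 libraries). Reads were trimmed by the authors (Cutadapt v1.9.3) and aligned to the rat genome rn5 (Hisat2 v2.0.4). MACS gave the peaks and diffReps the comparison of SNI with Control, and the authors then filtered and annotated peaks by exons with their own scripts. The deposited list has 6 columns, with the authors' −log10 p-value as its score and no value per library, so the reads and replicate error behind each peak are unknown. Library totals in the paper are not columns of the list. They are used here only to compare the labels of inputs and RNA-seq libraries, and no score was adjusted by them. Being limited to peaks past the authors' thresholds, it gives no share of tested sites.

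From it, lengths (end minus start), gaps, ranks, edges on a 20-base grid and runs of peaks were computed, with medians and counts but no test, since members and lists were chosen with earlier results of these data known. Gene names came from the paper's table by identical position (526 rows, all 526 matched). Named genes were Abca1, those naming a run of at least 15 peaks, the 4 others with most named peaks, and genes of 5 lists with a named peak. Functions were tested on simulated data. Computation used pandas 2.3.3 and scipy 1.17.1 under Python 3.11.15, and figures matplotlib 3.10.9.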

Additional observations from a re-analysis of the deposited data

How the results depend on the processing

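Under each of the 23 alternatives run, counts stayed within 1.5 times of the count reported, medians and shares within their 95% binomial interval, and the correlation within 0.1. The intervals of the medians and of the share treat peaks of 1 transcript as independent, and that of the share is wide. Staying inside them thus says little about stability. Requiring a score of at least 6 or a length of at least 50 bases removed no Abca1 peak, so these could not have changed any value. A score of at least 8 left 27 peaks. The share with both edges off the grid depended on how the grid was defined and moved from 58.6% (exact Clopper-Pearson interval 38.9% to 76.5%) to 75.9% with grid starts divisible by 20 or to 44.8% with 1 base of tolerance. The run that holds Abca1 had 18, 25 or 29 peaks with gaps under 5000, 10000 or 20000 bases. Intervals cover counting error only. No paired analysis was possible because the list has no value per library, and for the same reason no replicate was left out.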

Other observations

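Each peak of the list carries a running number in its name, and along each chromosome the numbers rose with position for all 3993 pairs of neighbours. What the numbers count is not given in the sources used here. From the first to the last Abca1 peak 99 numbers were used, of which the list holds 29 (29.3%). Of the 28 pairs of neighbouring Abca1 peaks, 11 (39.3%) had consecutive numbers, against 15.98% of neighbours in the list. The gene was selected on its many peaks, so a higher share than in the list is tied to that choice. The longest stretch of unlisted numbers, 16, lay in the widest gap, between the second and the third peak from the 5′ end. In the run of 25 Abca1 peaks 39.1% of the numbers from first to last were in the list. In the other 9 runs of at least 15 peaks the share was higher in 6, up to 81.2%, and lower in 3, among them Cenpe with 34.5%. The run with most peaks, on chromosome 3, had 44.7%.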
